A study of Mus musculus with 8 samples.

Results

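The genes described here are Lcn2, Saa3, Il1r2, C5ar1 and Aif1, 5 genes of neutrophils, other myeloid cells and the acute phase response, found by their symbols among the 752 genes of the authors' deposited table. Bulk RNA was sequenced from 8 subcutaneous tumors of MC38, a mouse colon adenocarcinoma line, grown in wild-type germ-free C57BL/6 mice and dissected on day 23. In 4 tumors (numbers 36, 37, 39 and 40, the F. nucleatum tumors) the mice received an intraperitoneal antibody against PD-1 and, by gavage, Fusobacterium nucleatum strain ATCC 25586, an oral anaerobe also found in the gut. In the other 4 tumors (numbers 11, 17, 18 and 19, the anti-PD-1 tumors) the mice received the antibody without the bacterium. All 8 tumors therefore carry the antibody, and no group with the bacterium alone is among the samples analysed here. The implanted cells are 1 tumor line, while blood-derived cells in the tumor come from the host. The samples address what F. nucleatum does to tumors of mice under PD-1 blockade.

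Neutrophils and macrophages are innate immune cells that respond to bacteria, complement and interleukin-1. Lcn2 and Saa3 encode secreted proteins of the acute phase response: lipocalin-2 withholds iron from bacteria by binding their siderophores, and serum amyloid A3 is an apolipoprotein-like protein made outside the liver during inflammation. Il1r2 encodes the decoy receptor for interleukin-1, which binds the cytokine without signaling, and C5ar1 the receptor for the complement fragment C5a, a strong attractant of neutrophils. Aif1 encodes the calcium- and actin-binding protein known as Iba1, a marker of macrophages and microglia.

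The label of these genes could be checked against the other markers of the cells only in part. Of 30 listed neutrophil genes the table holds 5, namely Lcn2, Il1r2, C5ar1, Fpr2 and Cd300lf, and the defining neutrophil genes Ly6g, S100a8, S100a9 and Mpo are outside it and were not analysed here. Of 36 listed macrophage and monocyte genes the table holds 1, Aif1 itself. The genes are therefore named by what they are known for, and no change in the number of neutrophils or macrophages can be read from them. In bulk tumor RNA, fewer cells of a type and less RNA per cell cannot be told apart.

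The table was made by selection on the comparison itself. Each of its 752 genes has an authors' p of at most 0.05 and an absolute log2 difference above 1, and the 5 genes were picked from it with earlier results known. The differences between groups below are therefore descriptions with no test, and the p-value and false discovery rate (FDR) quoted are the authors' own. All 5 genes had a lower mean in the F. nucleatum tumors, as had 353 genes of the table (46.9%), while 399 were higher. Lcn2, Saa3 and Il1r2 had an FDR under 0.05 there, in the authors' deposited table, and C5ar1 and Aif1 did not. That makes 3 of 5, where 6.25% of the table was lower at that FDR, and nothing can be read from the share because the selection used the same contrast. The log2 differences of the 5 genes had a median of -1.16, against -1.82 over the 353 lower genes and 1.18 over all genes of the table. Of the 353 lower genes, 60.6% had a larger difference than Saa3 and 61.2% than Lcn2, against 87.3% for C5ar1, 94.9% for Il1r2 and 99.2% for Aif1.

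The promoters of Lcn2 and Saa3 are shown because these are the pair of secreted acute phase genes, with the lowest mean ratio between the groups. Both sequences are the 250 bases before the RefSeq transcription start on GRCm38.p6, minus strand, at chr2:32387740-32387989 for Lcn2 and chr7:46715677-46715926 for Saa3. Capitals mark matches to the motif of C/EBP factors, regulators of myeloid and acute phase genes.
Lcn2: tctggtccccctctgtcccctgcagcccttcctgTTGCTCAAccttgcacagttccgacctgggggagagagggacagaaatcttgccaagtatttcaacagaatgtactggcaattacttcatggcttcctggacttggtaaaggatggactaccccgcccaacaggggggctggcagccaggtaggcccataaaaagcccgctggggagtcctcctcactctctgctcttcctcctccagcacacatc
Saa3: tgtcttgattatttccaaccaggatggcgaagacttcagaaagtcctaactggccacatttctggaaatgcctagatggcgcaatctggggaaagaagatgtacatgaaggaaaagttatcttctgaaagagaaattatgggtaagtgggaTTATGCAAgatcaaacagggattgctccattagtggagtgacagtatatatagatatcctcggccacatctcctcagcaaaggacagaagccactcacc
The motif was searched as TTNNGCAA on both strands, so that TTGCNNAA counts too, a form chosen with the sequences in view. It matched once in Lcn2, 216 to 209 bases before the start, and once in Saa3, 99 to 92 bases before the start. It matched in none of the other 3 promoters, and in 9.56% of the 32851 promoter windows of the same length. The PU.1 core GAGGAA, of a factor of myeloid cells, matched on the reverse strand in Lcn2 and Aif1, where 23.3% of windows hold it, and did not overlap the C/EBP match. The TATA box as TATAAA (12.4% of windows), the kappaB motif (3.90%) and the AP-1 motif TGANTCA (6.75%) had no match in these 5 windows on either strand. A match is a description of the letters and shows no binding.

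**Figure D1:**
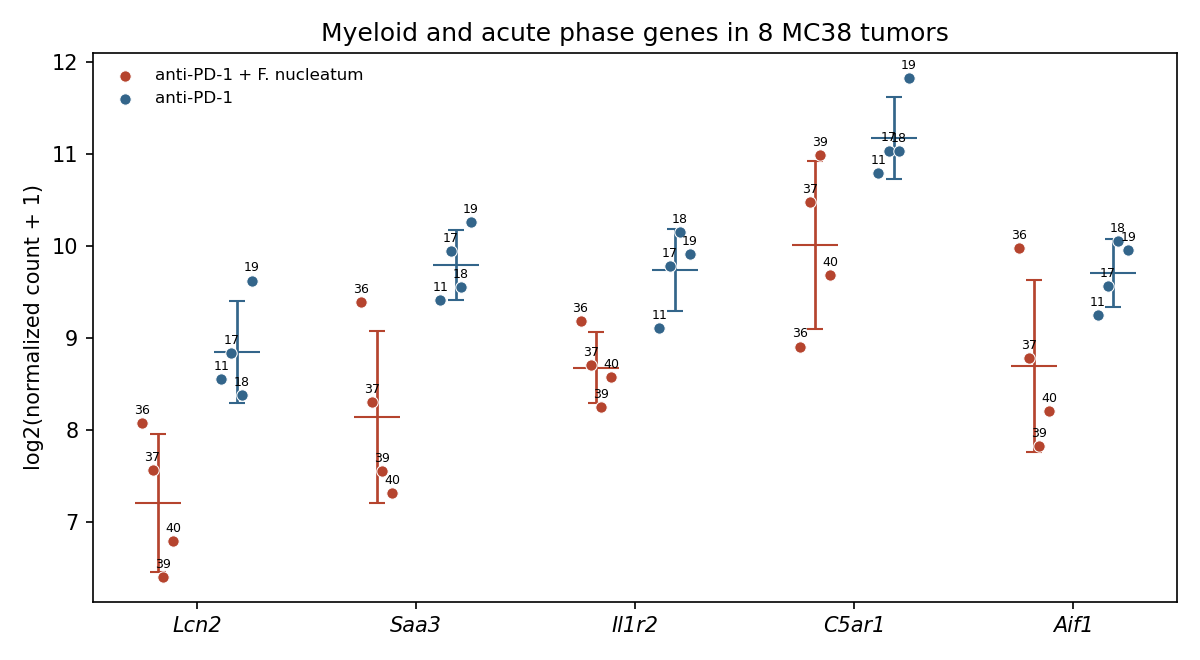
Log2(normalized count + 1) of the 5 genes in each tumor, with the tumor number beside each point; bars are the mean and SD of 4 tumors, with the F. nucleatum tumors left and the anti-PD-1 tumors right for each gene. The groups are apart in Lcn2 and Saa3 and overlap in Il1r2, C5ar1 and Aif1.

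Lcn2 was the gene with the clearest gap between the groups. It lies on chromosome 2 at 32384633 to 32388252 (GRCm38, minus strand), and its principal transcript has 6 exons. It had 1.65, 1.10, 0.50 and 0.619 FPKM (fragments per kilobase, relative to library size) in F. nucleatum tumors 36, 37, 39 and 40, against 2.29, 2.70, 1.95 and 4.69 FPKM in anti-PD-1 tumors 11, 17, 18 and 19. Each F. nucleatum tumor was below each anti-PD-1 tumor, with tumors 39 and 40 lowest and tumor 19 highest of all. The mean was 0.966 ± 0.522 FPKM in F. nucleatum tumors and 2.91 ± 1.23 FPKM in anti-PD-1 tumors (SD, n = 4 each), a 3.01-fold lower level. On the log2 scale of normalized counts plus 1 the difference was -1.64 ± 0.466 (SE), and the authors' deposited table gives it a p of 4.2e-05 and an FDR of 0.0091. The smallest log2 gap between the groups, from the lowest anti-PD-1 tumor to the highest F. nucleatum tumor, was 0.31.

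Saa3 followed a similar order of tumors. It lies on chromosome 7 at 46711998 to 46715700 (minus strand), with 4 exons in its principal transcript. It had 4.16, 1.87, 1.13 and 0.916 FPKM in F. nucleatum tumors 36, 37, 39 and 40, against 4.21, 5.89, 4.44 and 7.35 FPKM in anti-PD-1 tumors 11, 17, 18 and 19. The groups did not overlap, but F. nucleatum tumor 36 came within 0.03 log2 of anti-PD-1 tumor 11. The mean was 2.02 ± 1.48 FPKM in F. nucleatum tumors and 5.47 ± 1.46 FPKM in anti-PD-1 tumors (SD, n = 4 each), 2.71-fold lower. Tumor 36, the highest of its group, was also left out with the data in view, which can only widen the gap. The mean of the other 3 F. nucleatum tumors was 1.31 ± 0.50 FPKM, 4.19-fold below that of the 4 anti-PD-1 tumors. The log2 difference was -1.65 ± 0.503 (SE), with an FDR of 0.0365 in the authors' deposited table. Lcn2 and Saa3 were 2 of 5 genes whose groups did not overlap, where 12.4% of the table had no overlap in the lower direction, and again the selection used this contrast. Of 28 listed acute phase and iron-withholding genes the table holds 2, which are these same genes, and the other 26, Saa1, Saa2, Hp and Orm1 among them, were not analysed here.

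Il1r2 had the tightest values with the groups pooled, though not within the anti-PD-1 tumors alone. The gene lies on chromosome 1 at 40074079 to 40125231 (plus strand), with 9 exons in its principal transcript, and overlaps the annotated antisense gene Gm16894 and the unverified transcript Gm37347. The libraries were strand-specific, but the sources used here do not say whether reads were counted by strand. Il1r2 had 4.92, 3.38, 2.51 and 3.03 FPKM in F. nucleatum tumors 36, 37, 39 and 40, against 4.63, 7.18, 9.15 and 7.86 FPKM in anti-PD-1 tumors 11, 17, 18 and 19. The groups overlapped through F. nucleatum tumor 36 and anti-PD-1 tumor 11 alone, so that 15 of the 16 pairs of tumors, 1 from each group, had the lower value with F. nucleatum. The mean was 3.46 ± 1.04 FPKM in F. nucleatum tumors and 7.21 ± 1.90 FPKM in anti-PD-1 tumors (SD, n = 4 each), 2.08-fold lower. The log2 difference was -1.06 ± 0.295 (SE), with an FDR of 0.0071 in the authors' deposited table, the lowest of the 5 genes although its difference was the second smallest. Its SD on the log2 scale, pooled within groups, was 0.42, against 0.66 to 0.72 for the other 4 genes.

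The interleukin-1 list gives the setting of Il1r2. The table holds 3 of 28 listed genes, all lower, and Il1r2 alone of the 3 had an FDR under 0.05 there. Il1a, which encodes interleukin-1 alpha, a ligand that Il1r2 binds, had 0.126 ± 0.0420 FPKM in F. nucleatum tumors and 0.312 ± 0.158 FPKM in anti-PD-1 tumors (SD, n = 4 each), with an authors' deposited FDR of 0.783. Il18bp, which encodes the soluble inhibitor of interleukin-18, had 0.452 ± 0.273 FPKM in F. nucleatum tumors and 0.929 ± 0.312 FPKM in anti-PD-1 tumors, with an FDR of 0.678 in the authors' deposited table. Il1b, Il1r1 and Il1rn are outside the table and were not analysed here.

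C5ar1 differed in mean, but 1 F. nucleatum tumor lay among the anti-PD-1 tumors. The gene lies on chromosome 7 at 16246743 to 16259540 (minus strand), with 2 exons in its principal transcript. It had 3.01, 8.52, 12.4 and 4.83 FPKM in F. nucleatum tumors 36, 37, 39 and 40, against 11.1, 12.7, 12.5 and 21.9 FPKM in anti-PD-1 tumors 11, 17, 18 and 19. Tumor 39, the lowest of all 8 for Lcn2, Il1r2 and Aif1, was the one above an anti-PD-1 tumor, and tumor 36 was the lowest. The mean was 7.19 ± 4.16 FPKM in F. nucleatum tumors and 14.5 ± 4.97 FPKM in anti-PD-1 tumors (SD, n = 4 each), 2.02-fold lower. The log2 difference was -1.16 ± 0.507 (SE), with a p of 0.0357 and an FDR of 1.0 in the authors' deposited table. Without tumor 36, here the lowest, the mean of the other 3 F. nucleatum tumors was 8.58 ± 3.78 FPKM. That is 1.70-fold below the mean of the 4 anti-PD-1 tumors, a smaller gap than with all tumors. Of 35 listed complement genes the table holds 3, all lower and none with an FDR under 0.05. Besides C5ar1 these are Itgax, a subunit of a complement receptor of myeloid cells (1.38 ± 0.530 FPKM in F. nucleatum tumors and 3.75 ± 2.47 FPKM in anti-PD-1 tumors), and Hc, which encodes complement C5, the source of C5a. Hc was near the limit of detection, with at most 0.00788 FPKM in F. nucleatum tumors and at most 0.0828 FPKM in anti-PD-1 tumors.

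Aif1 overlapped most between the groups. It lies on chromosome 17 at 35170991 to 35176068 (minus strand), with 8 exons in its principal transcript. It had 10.6, 4.45, 2.33 and 2.90 FPKM in F. nucleatum tumors 36, 37, 39 and 40, against 6.38, 7.69, 10.7 and 10.1 FPKM in anti-PD-1 tumors 11, 17, 18 and 19. Tumor 36 was above 3 of the 4 anti-PD-1 tumors, and the other 3 F. nucleatum tumors were below all of them. The mean was 5.08 ± 3.81 FPKM in F. nucleatum tumors and 8.72 ± 2.03 FPKM in anti-PD-1 tumors (SD, n = 4 each), 1.72-fold lower. The log2 difference was -1.01 ± 0.504 (SE), just past the limit of the table, with a p of 0.0403 and an FDR of 1.0 in the authors' deposited table. Tumor 36 was again the highest of its group, so leaving it out can only widen the gap. The mean of the other 3 F. nucleatum tumors was 3.23 ± 1.10 FPKM, 2.70-fold below that of the 4 anti-PD-1 tumors.

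Fpr2 and Cd300lf complete the neutrophil genes of the table. Fpr2, a receptor for bacterial formyl peptides, had 3.70, 0.652, 1.57 and 0.626 FPKM in F. nucleatum tumors 36, 37, 39 and 40, against 1.03, 6.04, 6.14 and 4.47 FPKM in anti-PD-1 tumors 11, 17, 18 and 19. Cd300lf, a receptor of myeloid cells, had 1.04 ± 0.588 FPKM in F. nucleatum tumors and 2.19 ± 0.724 FPKM in anti-PD-1 tumors (SD, n = 4 each). Both overlapped between groups, and the authors' deposited table lists an FDR of 0.664 for Fpr2 and 0.28 for Cd300lf. All 5 neutrophil genes in the table were lower in the mean, where 46.9% of the table was lower, and 2 of them had an FDR under 0.05, where 6.25% of the table was lower at that FDR. Nothing can be read from these shares, since 3 of the 5 are Lcn2, Il1r2 and C5ar1, which were picked on this contrast, and both that passed the FDR are among them.

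**Figure D2:**
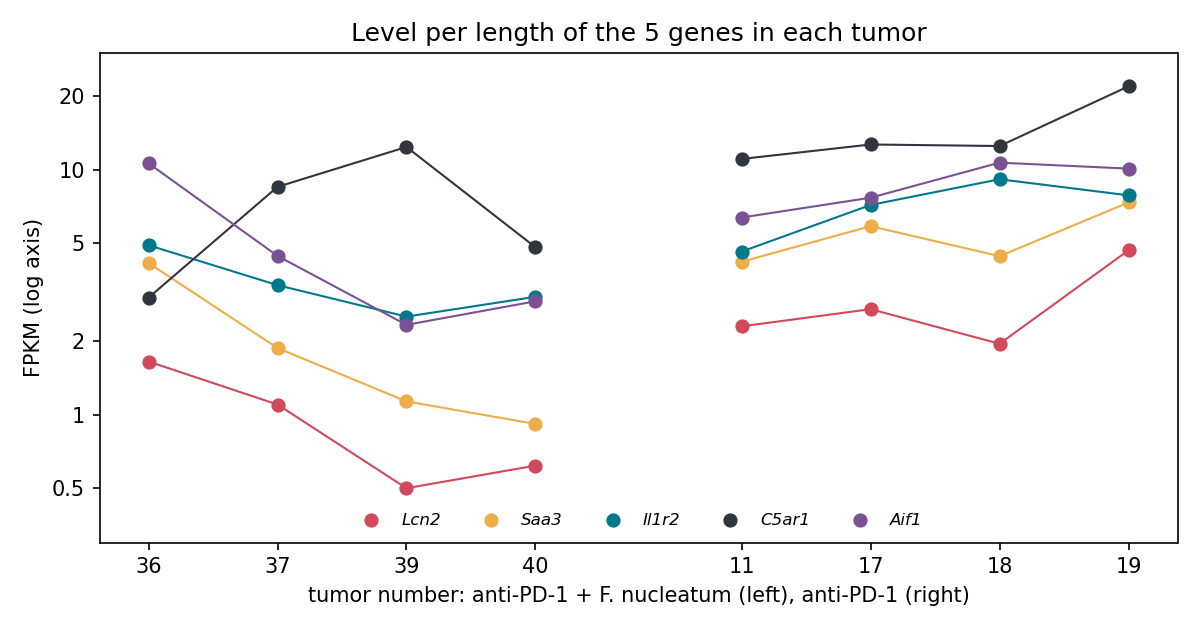
FPKM of the 5 genes (log axis) in each tumor, F. nucleatum tumors left and anti-PD-1 tumors right; lines join the values of 1 gene as a guide to the eye. C5ar1 is the highest of the 5 in every tumor except tumor 36, where it has 3.01 FPKM and Aif1 leads at 10.6 FPKM.

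The order of the levels was the same in both groups by mean FPKM, with C5ar1 first, then Aif1, Il1r2, Saa3 and Lcn2. In the F. nucleatum tumors each mean differed from the next in that order by less than the larger SD of the pair, and in the anti-PD-1 tumors this held for Aif1 and Il1r2 and for Il1r2 and Saa3. Lcn2 was last in all 8 tumors. The order depends on the length each gene was divided by. Across 324 genes of the table with enough counts, normalized counts per FPKM followed the length of all annotated exons joined together within 5% for 97.5% of the genes. For Saa3 that length is 2606 bases, while the principal transcript has 555, and for Lcn2 it is 2623 against 915. With the length of the principal transcript instead, a choice made after seeing the data, Saa3 came to 9.48 ± 6.96 FPKM in F. nucleatum tumors and 25.7 ± 6.84 FPKM in anti-PD-1 tumors (SD, n = 4 each), the highest mean of the 5 genes in both groups. Aif1 came to 8.89 ± 6.66 FPKM in F. nucleatum tumors and 15.3 ± 3.55 FPKM in anti-PD-1 tumors, so Saa3 and Aif1 differed by less than their SD in the F. nucleatum tumors. C5ar1 came to 7.27 ± 4.21 FPKM in F. nucleatum tumors and 14.7 ± 5.03 FPKM in anti-PD-1 tumors, and Lcn2 remained lowest with 2.77 ± 1.5 FPKM in F. nucleatum tumors and 8.33 ± 3.52 FPKM in anti-PD-1 tumors. Ratios between groups do not depend on the length.

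Within the F. nucleatum group the tumors were more uneven than within the anti-PD-1 group for 4 of the 5 genes. The log2 SD was 0.93 in F. nucleatum tumors and 0.38 in anti-PD-1 tumors for Saa3, 0.94 and 0.37 for Aif1, 0.91 and 0.45 for C5ar1, and 0.75 and 0.55 for Lcn2. It was 0.38 in F. nucleatum tumors and 0.45 in anti-PD-1 tumors for Il1r2. Tumor 36 was the F. nucleatum tumor farthest from its group mean for each of the 5 genes, so these SDs lean on 1 tumor. The difference between these SDs was not tested.

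**Figure D3:**
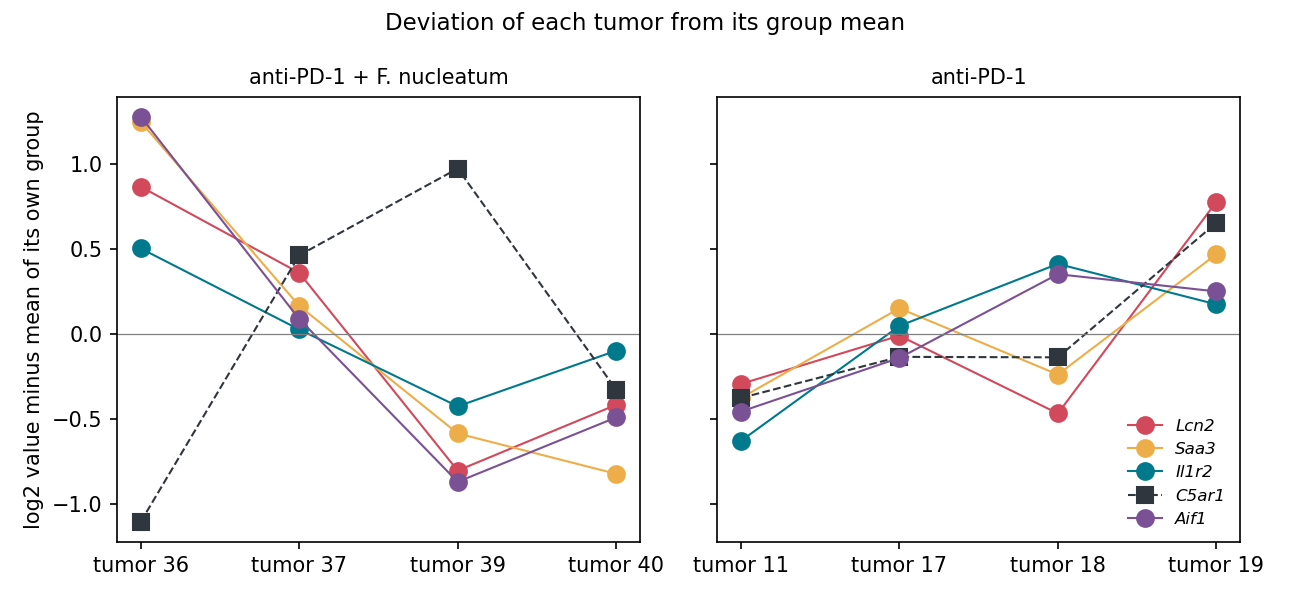
Log2 value of each tumor minus the mean of its own group, F. nucleatum tumors left and anti-PD-1 tumors right; lines join the values of 1 gene as a guide to the eye and C5ar1 is dashed. In tumor 36, 4 genes lie above the group mean and C5ar1 lies 1.10 below it.

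The 5 genes did not share 1 order of tumors. In the F. nucleatum group Lcn2, Saa3, Il1r2 and Aif1 were highest in tumor 36 and second highest in tumor 37, and C5ar1 was highest in tumor 39 and lowest in tumor 36. In tumor 36 the deviations from the group mean were 0.86 for Lcn2, 1.25 for Saa3, 0.50 for Il1r2, 1.28 for Aif1 and -1.10 for C5ar1. In the anti-PD-1 group Lcn2, Saa3 and C5ar1 were highest in tumor 19, and Il1r2 and Aif1 in tumor 18. Tumor 11 was lowest there for every gene except Lcn2, which was lowest in tumor 18.

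Over the 8 tumors, with each group centred on its own mean, the 6 pairs among Lcn2, Saa3, Il1r2 and Aif1 had Pearson's r from 0.58 to 0.90 and Spearman's rho from 0.52 to 0.90. The 4 pairs with C5ar1 had r from -0.57 to -0.26 and rho from -0.33 to -0.07. The highest r was that of Lcn2 and Saa3, 0.90 (rho 0.88), and it was 0.83 without tumors 36 and 19, the pair farthest from the median of Lcn2. For Il1r2 and Aif1 r was 0.86 (rho 0.90), and 0.90 without tumors 11 and 36. Leaving out in this way the 2 tumors farthest from the median of the first gene of a pair, with the groups centred again, r of the 6 pairs ranged from 0.27 to 0.90, and the lowest was that of Lcn2 and Il1r2, which had 0.58 with all tumors. For Aif1 and C5ar1 r was -0.57 and turned to 0.73 without tumors 39 and 36, for Saa3 and C5ar1 it turned from -0.37 to 0.37 without tumors 36 and 40, and it stayed negative for Lcn2 and C5ar1 (-0.18 without tumors 36 and 19) and for Il1r2 and C5ar1 (-0.45 without tumors 11 and 36). Without tumors 36 and 39, a choice made after seeing the data, all 4 pairs with C5ar1 were positive, from 0.45 to 0.94. By group, the 4 pairs with C5ar1 were all negative in the F. nucleatum tumors and all positive in the anti-PD-1 tumors, and the 6 other pairs were positive in both, with only 4 tumors in each. These values describe 8 tumors, in which all genes share library and size factor, and they carry no test.

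The closest genes by the same measure were taken from 199 genes of the table with a mean normalized count of at least 50. For Aif1 they were Ms4a4c (r = 0.98), the interferon-induced gene Rtp4 (0.96) and Oas1a (0.95), an antiviral oligoadenylate synthetase. For Il1r2 they were Rhoh (0.95), a small GTPase of blood cells, Rtp4 (0.91) and Oas1g (0.91), a close copy of Oas1a, so that reads may be split between them. These 5 different genes were all lower in the mean with F. nucleatum, by log2 differences of -1.02 for Rtp4 to -1.99 for Ms4a4c, and none passed an FDR of 0.05 in the authors' deposited table.

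Saa3 was closest to Cmya5 (r = 0.95), H2-DMb2 (0.94) and Des (0.94), and Lcn2 to Hspb7 (0.91), H2-DMb2 (0.90) and Aldh1l1 (0.86). H2-DMb2 is a chain of the peptide loader of MHC class II. Cmya5, Des and Hspb7 are muscle genes with a higher mean in the F. nucleatum tumors, by log2 differences of 2.16, 1.21 and 3.08. Des had 19.2, 1.48, 1.03 and 0.559 FPKM in F. nucleatum tumors 36, 37, 39 and 40, and 0.638 to 1.63 FPKM in anti-PD-1 tumors. Its r with Saa3 therefore leans on tumor 36. Without that tumor, 1 of the 3 genes named for Saa3 and 2 of those for Lcn2 came up again. For C5ar1 the closest genes had r of 0.68 (Fam84a), 0.67 (Napg, a factor of vesicle fusion) and 0.62 (Gm45871), and all 3 had a higher mean with F. nucleatum. Of these, Napg passed an FDR of 0.05 in the authors' deposited table. The choice of closest genes changed with single tumors: without 1 tumor, 0 to 3 of the 3 genes named for Il1r2 and for C5ar1 came up again, 0 to 2 for Saa3 and 1 to 3 for Lcn2 and for Aif1. It changed with the method too, in 3 settings: no filter on low values, Spearman's rho and log2(FPKM + 1). There 1 of the 3 genes came up again for Lcn2, 1 to 2 for Saa3, 0 to 3 for Il1r2 and for C5ar1 and 2 to 3 for Aif1.

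**Figure D4:**
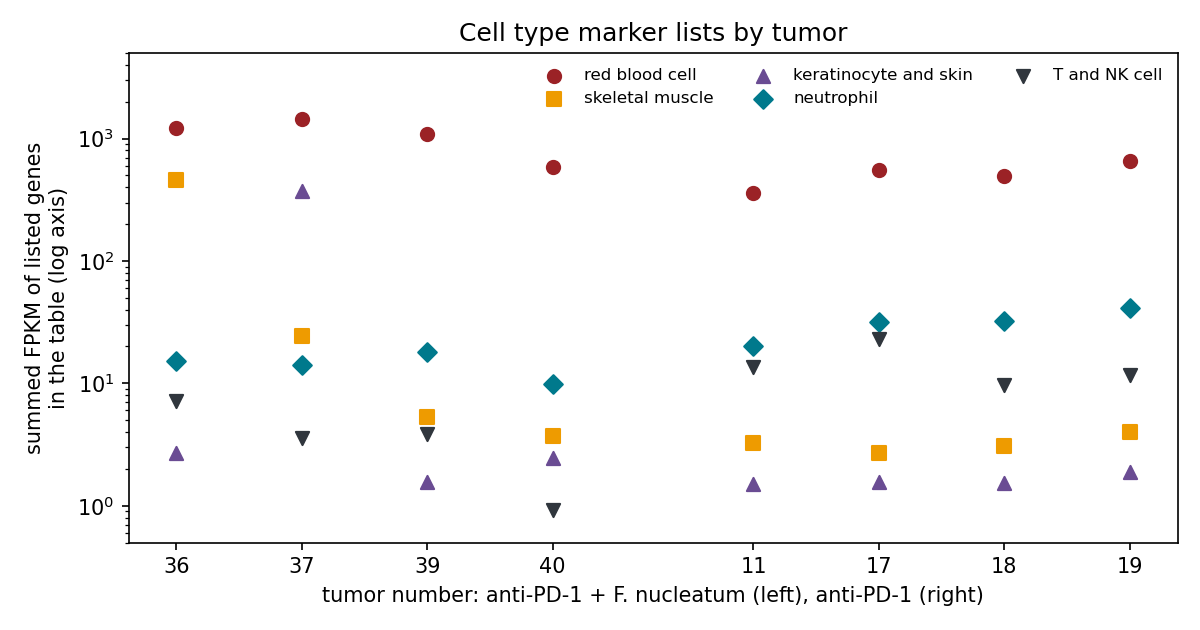
Summed FPKM of the listed genes of 5 cell types that are in the table (log axis), by tumor, F. nucleatum tumors left and anti-PD-1 tumors right. Muscle genes stand out in tumor 36 at 454 FPKM and skin genes in tumor 37 at 372 FPKM; the neutrophil sum includes Lcn2, Il1r2 and C5ar1.

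Markers of other cell types also varied between the tumors. All 20 listed skeletal muscle genes are in the table and higher in the mean with F. nucleatum, 7 with an FDR under 0.05 there. Their summed level was 3.68 to 454 FPKM in F. nucleatum tumors and 2.71 to 4.04 FPKM in anti-PD-1 tumors, with the maximum in tumor 36, where Lcn2, Saa3, Il1r2 and Aif1 were also at their highest in the group. Of 20 listed keratinocyte and skin genes 16 are in the table, all higher and 10 with an FDR under 0.05, at 1.55 to 372 FPKM in F. nucleatum tumors and 1.51 to 1.89 FPKM in anti-PD-1 tumors, with the maximum in tumor 37. In the anti-PD-1 tumors 9 of these 16 skin genes, Krt5 and Krt14 among them, were listed at 0 in every tumor. So were 4 of the 20 muscle genes, Myh2, Mb, Tnnc2 and Pvalb. With F. nucleatum, Krt5 was also at 0 in 3 tumors, and Krt14, Myh2, Mb and Pvalb in 2, but Tnnc2 in 0. Outside tumor 37 the skin genes summed to 2.70, 1.55 and 2.47 FPKM in F. nucleatum tumors 36, 39 and 40. The 7 red blood cell genes in the table, of 12 listed, summed to 582 to 1457 FPKM in F. nucleatum tumors and 358 to 658 FPKM in anti-PD-1 tumors, with 6 past that FDR. Of 22 listed T and NK cell genes 13 are in the table, all lower and 3 with an FDR under 0.05, at 0.930 to 7.12 FPKM in F. nucleatum tumors and 9.76 to 23.2 FPKM in anti-PD-1 tumors. Nothing can be read from these counts, because the table was selected on this contrast. Of its 752 genes 399 were higher and 353 lower, 161 had an FDR under 0.05, and 6.25% were lower at that FDR. The part of these cell types in the differences of the 5 genes was not tested.

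**Figure D5:**
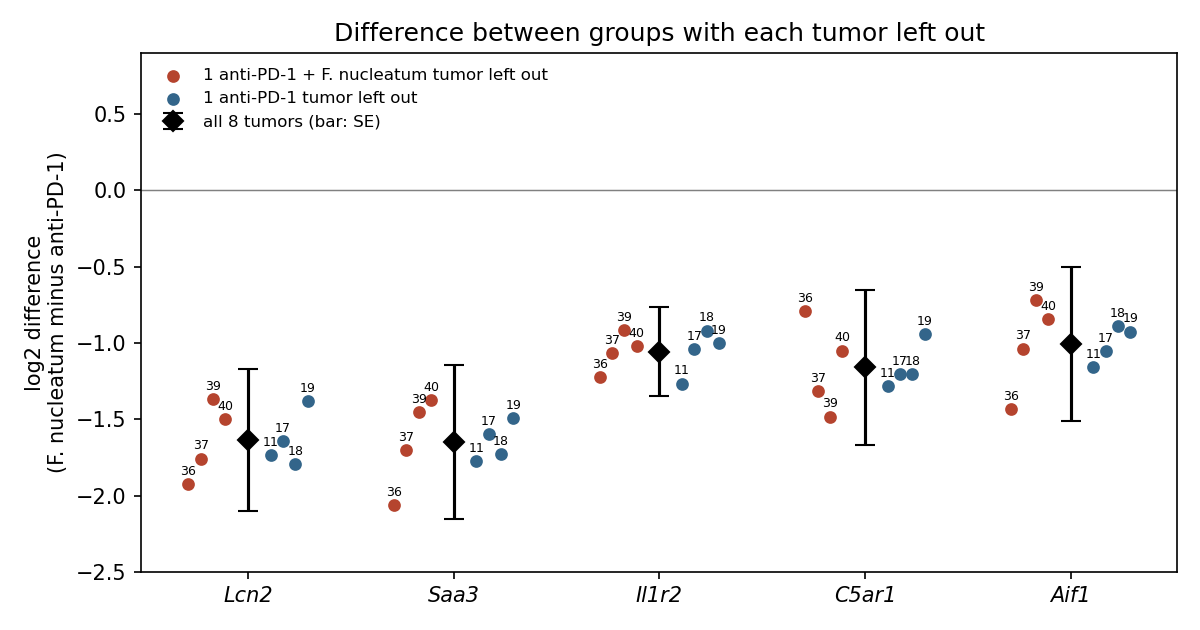
Log2 difference of each gene, F. nucleatum minus anti-PD-1, with all 8 tumors (diamond, bar for the SE) and with 1 tumor left out at a time, each point marked with that tumor's number. Every point is below 0, from -2.06 for Saa3 without tumor 36 to -0.72 for Aif1 without tumor 39.

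Without tumor 36, the tumor with the muscle genes, the log2 differences were -1.93 for Lcn2, -2.06 for Saa3, -1.22 for Il1r2 and -1.43 for Aif1, each larger in size than with all tumors, and -0.79 for C5ar1, smaller in size. The groups then did not overlap in 4 genes, all but C5ar1, where 26.2% of the table was then lower with no overlap. Tumor 36 was the highest of its group in those 4 genes and the lowest in C5ar1. Leaving it out therefore had to move the differences in these directions. Without tumors 36 and 37 together the differences were -2.25, -2.35, -1.32 and -1.69 for Lcn2, Saa3, Il1r2 and Aif1, and -0.84 for C5ar1. Tumor 37 was second highest of its group in the first 4 genes, so their differences had to grow further in size. Without anti-PD-1 tumor 11, the lowest of its group in 4 of the genes, the groups did not overlap in 4 genes either, all but Aif1, where 19.4% of the table was then lower with no overlap. Leaving out a tumor can only remove overlap between the groups and never add it.

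Aif1 had more neighbours in the table than the other 4 genes. It lies in the major histocompatibility complex, and 7 other genes of the table are within 500000 bases of it. All 7 had a lower mean in the F. nucleatum tumors, where 46.9% of the table was lower. The nearest is Ltb, which encodes lymphotoxin beta, at 18371 bases, with 0.341 FPKM in F. nucleatum tumors and 0.867 FPKM in anti-PD-1 tumors on average and an FDR of 0.971 in the authors' deposited table. Of the class I genes H2-Q4, H2-Q5, H2-Q6 and H2-Q7 nearby, H2-Q4 and H2-Q6 had an FDR there of 0.000863 and 0.00293, and as close copies they are uncertain as single genes. Nothing can be read from the count of 7, because the table was selected on this contrast and these copies are not separate observations. Within the same distance Saa3 had 1 gene of the table, Gm32031, which was higher in the mean, and Lcn2, Il1r2 and C5ar1 had 0.

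The reads behind these values were recovered from the deposited log2 values. The 5 genes together had 1670 to 3737 reads in F. nucleatum tumors and 3328 to 9611 in anti-PD-1 tumors, and relative size factors were 0.863 to 1.25 in F. nucleatum tumors and 0.644 to 1.27 in anti-PD-1 tumors. The lowest count was 104 reads, of Lcn2 in F. nucleatum tumors 39 and 40, with an exact 95% Poisson interval of 85.0 to 126 reads that covers counting error only.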

How the data were processed

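Per the labels' protocols, TRIzol RNA of each tumor went into stranded TruSeq libraries. Tools named in the submitters' processing notes are STAR 2.5, DESeq 1.22.1, Cuffnorm and FastQC, and the build is mm10. No role is stated for them. For 752 selected genes the authors' deposited table gives log2 values, FPKM, p-values and FDR. The sources used here do not give the test behind the p-values. Each deposited log2 value is that of a normalized count plus 1: taken back to the linear scale, 100% of the values above 0 were whole multiples of 1 step per tumor, within 0.1 read, which gave reads and relative size factors. Library totals are unknown. The authors' log2 fold change equals the difference of the group means of these values.

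The members and gene lists were chosen with earlier results of these data known. Groups are those of the labels. Numbers of replicates are names only, and the spread between tumors may be partly technical. The labels do not state that each tumor came from a separate mouse. Tumors of a group may therefore not be independent, and the SEs may be too small. The group contrast was described with means, SDs and the SE of a difference of 2 means, and not tested. Named genes were the 5 members, genes of the fixed lists and, for each member, the 3 genes with the highest Pearson's r among those with under 90% of their normalized counts in 1 tumor. Ltb, the H2-Q genes and Gm32031 were named after their values were seen. Positions and lengths came from GENCODE M21 (GRCm38, the assembly of mm10), which held all 752 gene IDs, and promoters of all 5 genes from RefSeq. Steps were run in Python 3.11.15 (scipy 1.17.1, pandas 2.3.3, matplotlib 3.10.9, numpy 2.4.6). The recovery of reads, the log2 difference and the choice of closest genes were tested on simulated data, and the other steps were not. Alternatives were log2(FPKM + 1), log2(FPKM + 0.1), median centring, tumors left out, and, for the closest genes, no filter and Spearman's rho.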

Additional observations from a re-analysis of the deposited data

How the results depend on the processing

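All 5 log2 differences kept their sign in each setting tried. With 1 tumor left out they ranged from -1.93 to -1.37 for Lcn2, -2.06 to -1.37 for Saa3, -1.27 to -0.91 for Il1r2, -1.48 to -0.79 for C5ar1 and -1.43 to -0.72 for Aif1, the median of the 5 from -1.43 to -1.0, and the number of genes without overlap from 2 to 4. On log2(FPKM + 1) they were -0.98, -1.19, -0.87, -1.03 and -0.84 in the order Lcn2, Saa3, Il1r2, C5ar1 and Aif1, smaller because 1 is large beside low FPKM. Centring each tumor on the median of the table adds -0.61 to every difference, which made Il1r2 -1.67, the median of the 5 -1.77 and the genes without overlap 4, where 26.3% of the table was then lower with no overlap. Without tumors 36 and 37 that median was -1.69, with 4 genes without overlap and 28.2% of the table. Leaving out tumors can only keep or raise the number of genes without overlap. Genes of the table with an authors' FDR under 0.05 numbered 161, and 53 with a mean of at least 1 FPKM. With 4 tumors per group, selected genes and unknown library totals, these data limit each value to a description. No paired analysis was possible because the labels give no number that pairs tumors across groups.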

Other observations

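The gene ontology terms in the authors' deposited table placed Lcn2, Saa3, Il1r2 and C5ar1, but not Aif1, under defense response, a term held by 66 of the 429 annotated genes of the table (15.4%). Saa3, C5ar1 and Aif1 were placed under cell chemotaxis, held by 17 genes (3.96%). All 17 had a lower mean in the F. nucleatum tumors, as had 59 of the 66 defense response genes. Of all 752 genes of the table, annotated or not, 46.9% were lower, and the share among the annotated genes alone was not computed. The terms that all 5 genes shared were broad, the narrowest being response to chemical stimulus with 23.1% of the annotated genes. It was held by 99 genes, 69 of them lower. Nothing can be read from these counts, because the table was selected on this contrast and the 5 genes were picked from it.

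The dendritic cell list had 2 of 12 genes in the table. Itgax, given above with complement, was also one of these, and Siglech, a receptor of plasmacytoid dendritic cells, had 0.0110 ± 0.00921 FPKM in F. nucleatum tumors and 0.0989 ± 0.0748 FPKM in anti-PD-1 tumors (SD, n = 4 each), with an FDR of 0.48 in the authors' deposited table.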
